A study of Macaca mulatta with 2 samples.

Results

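Among the circulating double-positive (DP) T cells of 1 rhesus monkey, 234 cells carried RNA of both EOMES and GZMK, kept the CD4 tag above the level of B cells, and had no RNA of CX3CR1 or TRAV10. They were 3.08% (2.70 to 3.49) of the 7601 cells that passed the filters of the study. The data were 1 sample from the peripheral blood of an untreated animal aged 6 years, sorted with CD4 beads and then with CD8 beads, so no comparison between animals or conditions was possible and no test was run. One library held 5′ RNA counts and the other held counts of DNA-tagged antibodies against CD4 and CD8 (tags), and all 7923 barcodes of the RNA library were also in the tag library. Each count is a unique molecular identifier (UMI), which stands for 1 captured molecule, and the RNA library held 32297887 UMIs of 35432 genes. The EOMES+ GZMK+ cells held 964672 of these, with a median of 3582 UMIs per cell (755 to 17382).

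EOMES encodes eomesodermin, a T-box transcription factor of memory and cytotoxic T cells and NK cells. GZMK encodes granzyme K, a granule serine protease. Type 1 regulatory T (Tr1) cells are CD4+ T cells without FOXP3 that restrain immune responses mainly through interleukin 10, and EOMES together with GZMK has been described in cells of this kind.

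The cells were chosen by their EOMES, GZMK, CD3, CX3CR1, TRAV10 and CD4 tag counts, so the values of these in the chosen cells are a description and not a result. EOMES RNA was sparse, with exactly 1 UMI in 167 cells, 2 or more in 67 and at most 6. GZMK RNA was abundant, with a median of 7.5 UMIs per cell (quartiles 4 and 13), at most 32, and exactly 1 UMI in 21 cells. The CD4 tag had to exceed 191 UMIs, the 90th percentile in 86 B cells, taken as cells without CD3 RNA that had 3 or more B cell gene UMIs. The 5 cells just inside had 194, 199, 202, 207 and 208 tag UMIs, and the 5 just outside had 191, 175, 168, 160 and 151. Of the 294 filtered cells with UMIs of both EOMES and GZMK, none lacked CD3 RNA, 23 lay at or below the tag limit, 30 of the rest had a CX3CR1 UMI and another 7 had a TRAV10 UMI. Within the remaining gate, 83.6% (78.7 to 87.7) of the 280 cells with an EOMES UMI also had a GZMK UMI, against 14.9% (13.9 to 15.9) of the 5256 cells without one. In cells with 3000 to 6000 UMIs the shares were 81.7% and 13.7%. The 783 cells with GZMK but no EOMES UMI are called GZMK-only cells, and 46 cells had EOMES but no GZMK.

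Unless another group is named, the cells are set against 5938 comparison cells, which had CD3 RNA and no UMI of EOMES or GZMK, with a median of 3701 UMIs. A level is the summed UMIs of a gene per 1000000 UMIs of the group (CPM). All intervals are exact 95% intervals (Clopper-Pearson for shares, Poisson for levels, the binomial split of both counts for ratios) and take in the error of counting alone, because many cells of a single animal do not replicate it.

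The promoter of EOMES is shown because the gene defines the cells. That of CMC1 is shown because CMC1 lies beside EOMES and had the highest ratio of CPM + 10 below among genes that did not rest on 1 cell. Each sequence is the 250 bases before the annotated start in the RefSeq annotation of Mmul_10, read on the gene's strand. Capitals mark TCACAC or its reverse complement GTGTGA, the core bound by T-box factors.
EOMES, chr2:20018230-20018479, plus strand: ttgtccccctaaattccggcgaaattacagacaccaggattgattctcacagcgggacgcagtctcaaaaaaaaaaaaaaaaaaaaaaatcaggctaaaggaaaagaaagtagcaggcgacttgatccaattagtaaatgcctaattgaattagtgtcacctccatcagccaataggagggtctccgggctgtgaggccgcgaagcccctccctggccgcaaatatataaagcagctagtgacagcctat
CMC1, chr2:19500386-19500635, minus strand: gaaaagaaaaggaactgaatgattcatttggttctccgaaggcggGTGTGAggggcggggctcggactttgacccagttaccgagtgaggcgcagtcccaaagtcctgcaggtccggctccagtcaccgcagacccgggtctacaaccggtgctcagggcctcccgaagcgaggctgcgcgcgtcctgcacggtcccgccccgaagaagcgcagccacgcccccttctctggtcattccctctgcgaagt
CMC1 had 1 match, beginning 205 bases before the start, and EOMES had none. The motif was found in 10.4% of the 20769 promoters read in the same way, and in 2 of the 9 leading genes of the comparison that had an annotated promoter. A match here describes letters and was not tested for binding.

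The CD4 tag was above its B cell limit on every chosen cell, as the rule required, but the CD8 tag was above its own in a minority. The CD4 limit does not show CD4 protein on each cell, since 8 of the 86 B cells (9.30%) also exceeded it. The median CD4 tag was 414 UMIs per cell (quartiles 334 and 547.8), against 380 in comparison cells. Comparison cells were not held to the CD4 tag limit, which 93.4% of them exceeded. The CD8 tag, which the rule did not use, had a median of 268.5 (quartiles 172.5 and 462.8), against 348 (192 and 574) in comparison cells. The 90th percentile of the CD8 tag in the B cells was 330.5, and 95 of the 234 EOMES+ GZMK+ cells exceeded it, or 40.6% (34.2 to 47.2), against 52.6% (51.3 to 53.9) of comparison cells. The 139 others could not be told from B cells by this tag. The lower share was not particular to the EOMES+ GZMK+ cells. At the same CD4 tag limit it was 41.9% (38.4 to 45.4) in GZMK-only cells and 35.6% (27.9 to 43.8) in cells with a FOXP3 UMI. It was 52.8% in cells with UMIs of CX3CR1 and GZMB, and 54.4% in cells with UMIs of CCR7 and LEF1. CD4 RNA was at 164 CPM against 175, CD8A RNA at 170 against 175, and CD8B RNA, the beta chain of conventional CD8 T cells, at 16.6 against 14.3, with ratio intervals that spanned 0 for each gene.

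**Figure D1:**
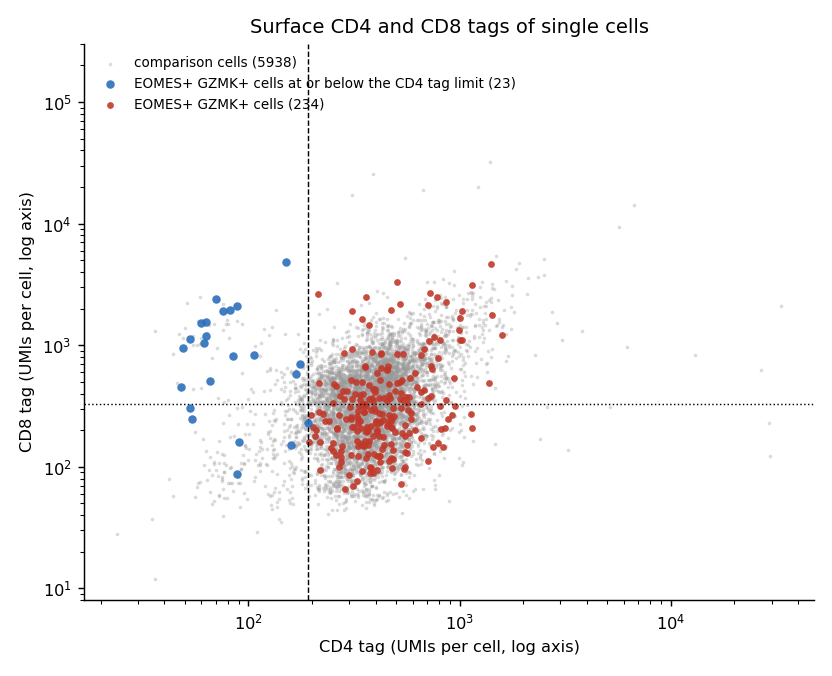
CD4 tag against CD8 tag in UMIs per cell on log axes, with 1 point per cell. The dashed and dotted lines mark 191 and 330.5 UMIs, the 90th percentiles of the B cells, and 95 of 234 EOMES+ GZMK+ cells (red) lie above the dotted line, while the 23 cells at or below the CD4 limit (blue) have a median CD8 tag of 836.

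The label Tr1-like was checked against CHI3L2, CST7 and NKG7, which the study names beside EOMES and GZMK as genes of such cells, and against IL10 and FOXP3. CST7, which encodes the protease inhibitor cystatin F, was at 812 CPM against 400 in comparison cells, and NKG7, a granule membrane protein gene of cytotoxic cells, at 1165 against 719, but both were higher still in CX3CR1+ GZMB+ cells, at 1077 and 1975. CHI3L2, which encodes a chitinase-like protein, had 24 UMIs in 15 of the 234 cells, with 4, 3, 2, 2 and 2 UMIs in the highest 5. Its level was 24.9 CPM (15.9 to 37.0) against 3.41 (2.72 to 4.23) in comparison cells. In cells thinned at random to 2000 UMIs, 4.48% (2.17 to 8.09) had a CHI3L2 UMI, against 0.501% of comparison cells and 0 of 79 B cells, where 3 counts would be 3.80%. The unthinned shares were 6.41% and 1.11%, and 1.16% of B cells (1 of 86). CHI3L2 was not particular to the EOMES+ GZMK+ cells, since 149 FOXP3+ cells had 29.8 CPM (18.7 to 45.1) and GZMK-only cells with 5 or more GZMK UMIs had 20.6 (13.3 to 30.4).

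IL10, the defining cytokine of Tr1 cells, had 12 UMIs in 3 of the 234 cells (6, 5 and 1), which gave 12.4 CPM against 0.863 in comparison cells. The IL10 level therefore rested on 2 cells, and 231 cells had no IL10 UMI at this depth. IL10 was at 9.48 CPM in FOXP3+ cells and 8.24 in GZMK-only cells with 5 or more GZMK UMIs. The ratio intervals against both spanned 0. FOXP3, the lineage factor of regulatory T cells, had a UMI in 0 of 234 cells, which allows a share of cells with a UMI of up to 1.28%, taken as 3 counts and not as the exact interval, and sets no limit on cells that express it below this depth. IL2RA, the high-affinity interleukin 2 receptor chain, was at 4.15 CPM against 114 in FOXP3+ cells. LAG3, an inhibitory receptor of Tr1 cells, was at 23.8 CPM against 15 in comparison cells, with a ratio interval of 0.00 to 1.28 (log2). ITGA2, which encodes the Tr1 surface marker CD49b, had 0 UMIs. Of these genes outside the rule, CHI3L2, CST7 and NKG7 were thus higher over several cells, IL10 was seen in 3 cells, the interval of LAG3 reached 0 and ITGA2 was not detected, so the cells are called by their 2 defining genes.

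Of 4710 genes with a mean of at least 20 CPM over both groups, 29 (0.616%) were at least 2-fold higher in the EOMES+ GZMK+ cells than in comparison cells and 20 (0.425%) at least 2-fold lower, by the ratio of CPM + 10, or 1.04% in either direction. Scaled without ribosomal and mitochondrial genes, 40 were higher and 40 lower, so that the higher share went from 59.2% to 50%. This scaling raises every CPM, while the limit of 20 CPM and the added 10 CPM stay fixed. More genes can then be compared and pass in either direction, and the number then compared is not given here. The genes of the rule were left out. The comparison cells had not been held to the rest of the rule, and against the 4473 of them with the CD4 tag above the limit and no CX3CR1 or TRAV10 UMI, a setting added after the data had been seen, 47 genes were higher and 22 lower. Over all compared genes the median log2 ratio was 0.05. In 7 of the 29, a single cell held over 50% of the UMIs. Of these, 5 were histone genes (H3C6, H3C12, H3C2, H3C13 and HIST1H2AE) with most of their UMIs in the same cell, which had 12466 UMIs in all, 22 of the S phase gene RRM2 and 4 of MKI67. The other 2 were features without a symbol, ENSMMUG00000058213 and ENSMMUG00000065023, each seen in 1 of the 234 cells, with 86 and 76 UMIs. Without the cell with most UMIs of each gene in each group, 17 genes were higher and 31 lower.

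**Figure D2:**
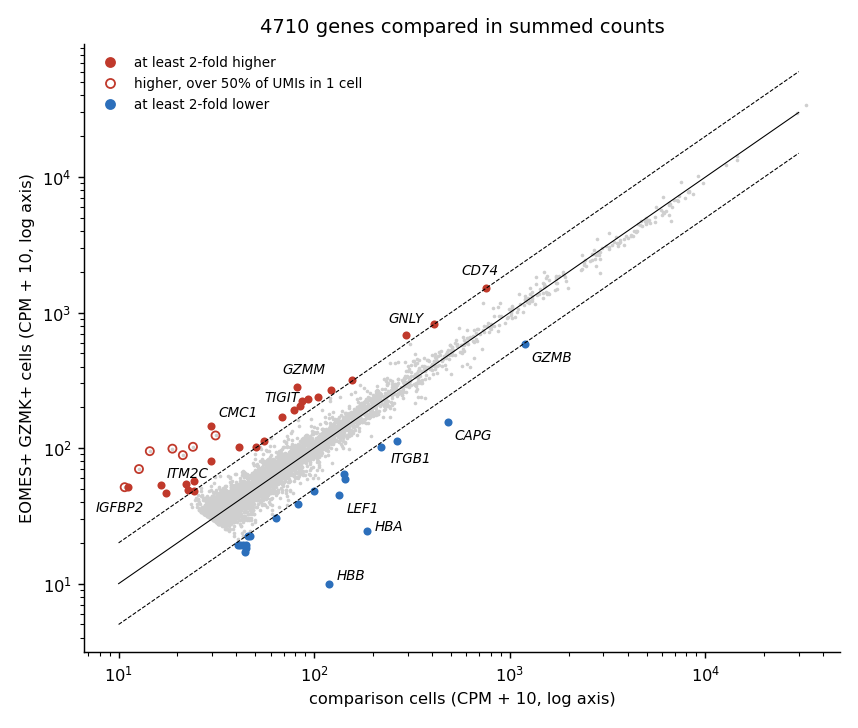
Summed level of each of 4710 genes in the EOMES+ GZMK+ cells (vertical) against the comparison cells (horizontal), both as CPM + 10 on log axes. Dashed lines mark a 2-fold ratio, filled red points are higher genes spread over cells, open red points are the 7 genes with over 50% of their UMIs in 1 cell, and blue points are lower genes.

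The genes with the highest ratios of CPM + 10 that did not rest on 1 cell were CMC1, IGFBP2, GZMM, ITM2C and others described below. Without the added 10 CPM (the pseudocount), IGFBP2 had the highest log2 ratio of these, at 5.12 (4.39 to 5.86). CMC1 was then at 2.77, ITM2C at 2.75 and GZMM at 1.94. CMC1, which encodes a protein of cytochrome c oxidase assembly, had 130 UMIs in 65 cells and stood at 135 CPM (113 to 160) against 19.7 (18.0 to 21.6). Its log2 ratio was 2.28 with the pseudocount of 10 CPM and 2.77 (2.48 to 3.05) without it. CMC1 lies on chromosome 2 of Mmul_10 from 19421434 to 19500385, 518 kb from EOMES (20018480 to 20025222), and the RefSeq annotation has 0 protein-coding genes between them. Of the other genes within 1000000 bases of EOMES, SLC4A7 was at 43.5 CPM against 35.2 and AZI2 at 20.7 against 15.7, with log2 ratios of 0.24 and 0.26.

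IGFBP2, which encodes an insulin-like growth factor binding protein, had 40 UMIs in 22 cells, with at most 5 in a cell. It stood at 41.5 CPM (29.6 to 56.5) against 1.19 (0.798 to 1.71), where 5938 comparison cells together held 29 UMIs. No UMI of IGFBP2 was found in the 86 B cells. ITM2C, which encodes a transmembrane protein that binds the amyloid precursor, had 43.5 CPM against 6.45, and the B cells had 63.0 CPM of it, on 25 UMIs in 4 of 86 cells. SIGLEC5, an inhibitory sialic acid receptor, had 36.3 CPM against 7.40. Each of these 4 genes was detected in few cells, and the thinned share for CMC1, the one seen in most, was 18.8% (13.9 to 24.6) against 3.49% (3.03 to 4.01).

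Of the 13 measured cytotoxic granule genes, 11 could be compared, with 4 higher, 1 lower and a median log2 ratio of 0.68. The granzyme gene GZMM had 274 CPM against 71.2 (log2 ratio 1.81), and 147 of the 234 cells carried it. GNLY, which encodes the pore-forming granulysin, had 671 CPM against 286. CTSW, a protease of cytotoxic cells, had 194 against 74.3, and CST7 had 812 against 400. GZMB, the main apoptosis-inducing granzyme, was the lower gene, at 576 CPM (556 UMIs in 80 cells) against 1180 (log2 ratio -1.02), but this call depended on the rule, which barred CX3CR1 from the EOMES+ GZMK+ cells and not from the comparison cells. With CX3CR1+ cells kept on both sides GZMB was at 820 CPM against 1180 (-0.52), and with the rest of the rule applied to both at 576 against 686 (-0.25), under 2-fold each time. GZMM, GNLY and CST7 were past 2-fold in both of these settings, and NKG7 reached 1.35 in the second. PRF1, which encodes perforin, had 102 CPM against 59.9, under the 2-fold limit. CST7 lay at the 2-fold limit, with a log2 ratio of 0.97 when scaled without ribosomal and mitochondrial genes.

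Chemokine and receptor genes gave smaller groups. CCL4L1, a chemokine gene whose reads may be shared with close copies, had 102 CPM against 45.2, while CCL5 had 261 against 248. Of the 11 compared genes of the Tr1-associated list, 2 were higher (TIGIT and CST7), 0 were lower and the median was 0.48. TIGIT, an inhibitory receptor, was the 1 of 6 compared checkpoint genes past 2-fold, with 155 UMIs in 90 cells, 161 CPM against 58.5. PDCD1, which encodes PD-1, had 153 CPM against 115. Of 11 compared cytokine receptor genes, IL2RB, the shared beta chain for interleukins 2 and 15, was past 2-fold with 214 CPM against 76.8. KLRB1, which encodes the lectin receptor CD161, had 257 CPM against 112 and was the 1 of 7 compared killer receptor genes past 2-fold. Of 8 compared chemokine and egress receptor genes, 0 were higher and CCR9, the gut homing receptor, was lower, with 9.33 CPM against 33.3. CXCR4 had 576 CPM against 299 and CXCR3, a receptor of type 1 T cells, had 80.9 against 39.7.

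Listed transcription factor genes showed no ratio of 2-fold among the 14 compared, and their median was 0.21. TBX21, which encodes T-bet, the other T-box factor of effector cells, had 12 UMIs in the 234 cells, 12.4 CPM against 25.6. PRDM1, which encodes BLIMP-1, had 53.9 CPM against 35.8, TOX had 87.1 against 46.7, and MAF, a factor linked to interleukin 10, had 10.4 against 21.6. TBX21 and MAF had mean levels under the limit of 20 CPM, so they were not among the 14 compared. Among the cytokine and TNF ligand genes, 0 of 5 compared passed 2-fold. IFNG, also under the limit and not among those 5, had 4 UMIs in 4 of the 234 cells, 4.15 CPM against 6.58.

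Lower genes in EOMES+ GZMK+ cells included memory and cytoskeletal genes. CAPG, which encodes an actin-capping protein, had 147 CPM against 471 and was found in 16.1% (11.6 to 21.6) of thinned cells against 54.8% (53.5 to 56.1). ITGB1, the integrin beta 1 chain, had 92.3 CPM against 210, and ITGB7, the beta chain of the gut homing integrin, had 54.9 against 132, and they were the 2 lower of 12 compared integrin and adhesion genes. Both CAPG and ITGB1 were among the 12 compared genes of the memory and cytoskeleton list, of which 0 were higher, with a median of -0.33. LEF1, a transcription factor of naive T cells, had 35.2 CPM against 124, and was the 1 lower gene of 14 compared naive and stemness genes, whose median was -0.14. CCR7, the lymph node homing receptor on the same list, had 251 CPM against 152. TNFRSF18, which encodes the Treg and activation receptor GITR, had 12.4 CPM against 36.0, and was the 1 lower gene of 3 compared Treg genes and of 9 compared costimulatory genes, where 0 were higher. The globin genes HBB (0 UMIs) and HBA (14.5 CPM against 177) had the lowest ratios, but 99.7% of the 2657 HBB UMIs of the comparison cells came from 1 cell. Without the top cell of each group the log2 ratio of HBB was -0.05 and that of HBA -1.17, and with the rest of the rule applied to comparison cells they were -0.05 and -0.46. TIMP1, SFRP5, TSPAN2, OTUD5, GPX1, CTSH, SESN1 and the feature ENSMMUG00000059649 were also lower, with log2 ratios from -1.29 for TIMP1 to -1.06 for SESN1. Against comparison cells without a CX3CR1 or GZMB UMI, a filter not applied to the EOMES+ GZMK+ cells, TSPAN2 turned to 0.18 and ENSMMUG00000059649 to 0.07.

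**Figure D3:**
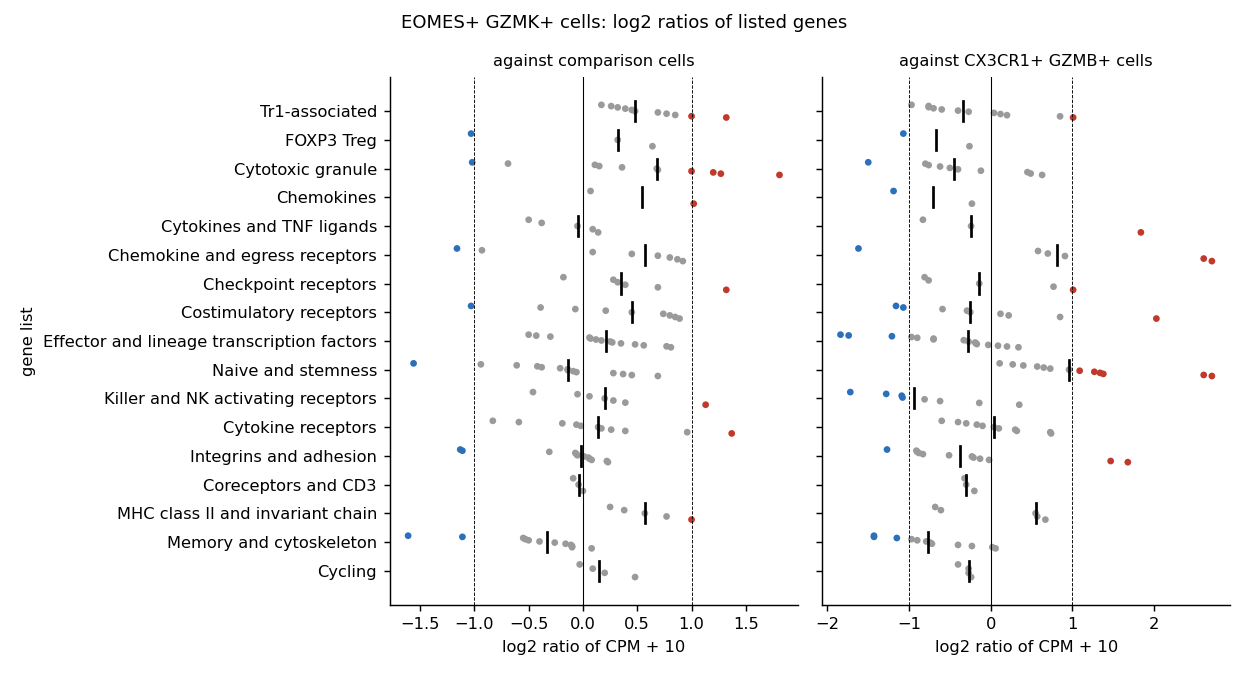
Log2 ratio of CPM + 10 for each compared gene of 17 lists, for EOMES+ GZMK+ cells against comparison cells (left) and against CX3CR1+ GZMB+ cells (right). Each point is a gene, the black bar is the list's median, dashed lines mark 2-fold, and naive and stemness genes have a median of -0.14 on the left and 0.96 on the right.

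The comparison cells mix naive, helper and cytotoxic cells, so the EOMES+ GZMK+ cells were also set against 1132 CX3CR1+ GZMB+ cells, the cytotoxic DP T cells of the same sort, at the same CD4 tag limit. Of 4859 genes compared, 44 (0.906%) were at least 2-fold higher and 79 (1.63%) at least 2-fold lower, or 2.53% in either direction, with a median log2 ratio of -0.10. When ribosomal and mitochondrial genes, which held 31.5% of UMIs in the EOMES+ GZMK+ cells and 26.6% in the cytotoxic cells, were left out of the scaling, 89 were higher and 86 lower, so that the higher share of genes past 2-fold went from 35.8% to 50.9% and the median moved by 0.08.

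Against the cytotoxic cells, several naive and stemness genes were higher and receptor lists were mixed. Of 6 compared chemokine and egress receptor genes 2 were higher and 1 (S1PR5) lower, with a median of 0.81, and of 9 compared costimulatory receptor genes 1 (CD28) was higher and 2 (TNFRSF18 and CD6) lower, with a median of -0.25. CCR7 stood at 251 CPM against 29.8 (log2 ratio 2.71). In thinned cells, CCR7 was found in 32.7% (26.6 to 39.3) against 2.93% (2.01 to 4.11), and in 12.7% of B cells, which also use this receptor. GPR183, which guides lymphocytes to oxysterols, had 414 CPM against 87.9, the costimulatory receptor gene CD28 had 94.3 against 15.5, LTB, which encodes lymphotoxin beta, had 1082 against 294 and ITGA6, an integrin alpha chain, had 64.3 against 13.2. Of 13 compared naive and stemness genes, 6 were higher and 0 lower, with a median of 0.96. LEF1 was not among them, at 35.2 CPM against 24.2. CMC1, IGFBP2 and ITM2C were again among the leading genes, with 135, 41.5 and 43.5 CPM against 16.2, 1.08 and 2.81. The 5 histone genes and ENSMMUG00000058213 were there too, on the same single cells.

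Among the genes lower than in the cytotoxic cells were ADGRG1, ZEB2, TBX21 and S1PR5. ADGRG1, an adhesion receptor of cytotoxic cells, had 2 UMIs in the EOMES+ GZMK+ cells, 2.07 CPM against 67.1. ZEB2, a transcription factor of terminal effector differentiation, had 53.9 CPM against 219, TBX21 had 12.4 against 65.2 and S1PR5, a receptor for exit from tissue, had 9.33 against 49.2. Of 17 compared transcription factor genes, 3 were lower (TBX21, ZEB2 and BHLHE40) and 0 higher. Of 8 compared killer receptor genes, 4 were lower (KLRD1, NKG2D, KLRF1 and NCR3) and 0 higher, and KLRD1, which encodes CD94, had 47.7 CPM against 179. CMA1, TSPAN2, GPR141, RGS9, USH1C, PPM1J, TIMP1, HBA and the features ENSMMUG00000059649 and ENSMMUG00000063185 were the others of the 15 lowest. GZMB, which defined the cytotoxic cells, was at 576 CPM against 3497 and was left out of the counts, and of the other 10 compared granule genes 1 was lower (HOPX) and 0 higher, with a median of -0.45. GZMM had 274 CPM against 174 and GNLY 671 against 489, whereas NKG7 had 1165 against 1975, CST7 812 against 1077 and PRF1 102 against 162. CCL5 had 261 CPM against 609.

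The level of CCR7 placed the EOMES+ GZMK+ cells between the cytotoxic cells and 1062 CCR7+ LEF1+ cells, whose CCR7 level of 393 CPM was fixed by their own definition. LEF1, also fixed by that definition at 362 CPM, was at 35.2 in the EOMES+ GZMK+ cells and 24.2 in the cytotoxic cells. Against 149 FOXP3+ cells, TIGIT was at 161 CPM against 139 and CD28 at 94.3 against 110, with ratio intervals that spanned 0, while CTLA4, the inhibitory receptor of regulatory T cells, was at 30.1 against 92.0 and NKG7 at 1165 against 116.

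**Figure D4:**
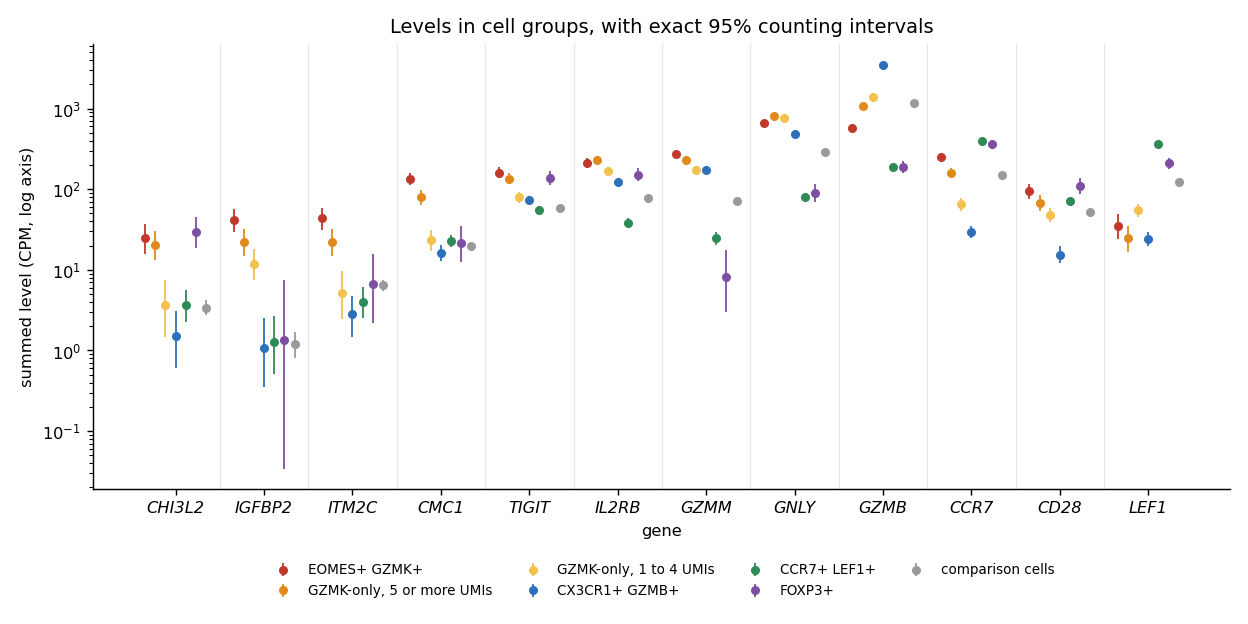
Summed level of 12 genes in CPM on a log axis, in 7 groups of cells, with exact 95% counting intervals as bars. Red points are the EOMES+ GZMK+ cells, and for CMC1, IGFBP2 and ITM2C they lie above the other 6 groups drawn, which leave out the cells at or below the CD4 tag limit (359 CPM of CMC1, 47.9 of IGFBP2 and of ITM2C) and the B cells, while CHI3L2 is as high in the FOXP3+ cells (29.8 CPM against 24.9).

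GZMK-only cells fail the rule only for want of an EOMES UMI. They had a median of 3 GZMK UMIs (quartiles 1 and 7). After the values had been seen, they were split at 5 GZMK UMIs, into 296 cells with at least 5 and 487 with 1 to 4. CMC1 was at 79.1 CPM in the first and 23.4 in the second, IGFBP2 at 22.2 and 11.9, ITM2C at 22.2 and 5.19, CHI3L2 at 20.6 and 3.64, and CCR7 at 158 and 64.9. For each of these 5 genes the EOMES+ GZMK+ cells were higher than both, with 135, 41.5, 43.5, 24.9 and 251 CPM, although the ratio interval of CHI3L2 against the cells with at least 5 GZMK UMIs, -0.60 to 1.14 (log2), spanned 0. GZMB had the opposite order, with 576 CPM in EOMES+ GZMK+ cells, 1081 and 1379. Against the cells with at least 5 GZMK UMIs, CST7 (812 against 905 CPM), NKG7 (1165 against 1383), GNLY (671 against 801) and KLRB1 (257 against 314) were also lower. Their ratio intervals lay below 0. TIGIT (161 against 135) and IL2RB (214 against 231) had intervals that spanned 0, while GZMM was higher (274 against 228, interval 0.01 to 0.51). CMC1 was at 81.3 CPM (48.2 to 128) in the 46 cells with EOMES but no GZMK, on 18 UMIs.

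Similarity in genes outside the rule was measured by neighbours. Each cell's 20 nearest neighbours were taken in 15 principal components of 2000 variable genes, leaving out the genes of the rule and receptor segments. Of the neighbours of EOMES+ GZMK+ cells, 22.6% were EOMES+ GZMK+ cells, which were 3.08% of all cells, and 34.9% were GZMK-only cells, which were 10.3%. CX3CR1+ GZMB+ cells were 8.21% of the neighbours and 14.9% of all cells, CCR7+ LEF1+ cells 4.96% and 14%, and FOXP3+ cells 0.470% and 1.96%. The cells varied, since the share of EOMES+ GZMK+ neighbours had quartiles of 5%, 20% and 40%, reached 70%, and was 0 for 37 cells. EOMES was seen as exactly 1 UMI in 167 of the 234 cells, and the part of its sparse capture in this spread was not tested.

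The 234 cells were also split by whether a GZMB UMI was found. The split was chosen after the values had been seen, and 5 cells with 23 to 59 UMIs of B cell genes were left out of it. A GZMB UMI was found in 77 of the remaining cells and in none of the other 152, with median depths of 3640 and 3502.5 UMIs. In the B cells, 7 of 86 (8.14%) also had a GZMB UMI. These 7 cells held 263 GZMB UMIs, so the level of 663 CPM over all B cells rested on few cells. The share of background among the GZMB UMIs of the split was not tested. Cells without GZMB had 365 CPM of CCR7 against 83.8 in cells with it and 1366 of LTB against 581. IGFBP2 was at 61.4 CPM against 12.4, resting on 35 and 4 UMIs, and CHI3L2 at 35.1 against 12.4, on 20 and 4, where the ratio interval of CHI3L2 spanned 0. Cells with GZMB had 531 CPM of CCL5 against 98.3, 112 of KLRD1 against 14 and 109 of ZEB2 against 22.8. CMC1 (102 against 132), GZMM (255 against 302) and GNLY (668 against 707) had ratio intervals that spanned 0. EOMES (317 against 381) and GZMK (2006 against 2547) were genes of the rule, so their values here are a description and not a result. STMN1 and TUBB, genes of dividing cells, were at 307 and 481 CPM in the cells with GZMB against 72.0 and 142. Of their 99 and 155 UMIs in the cells with GZMB, 57 and 78 came from the histone-rich cell alone.

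**Figure D5:**
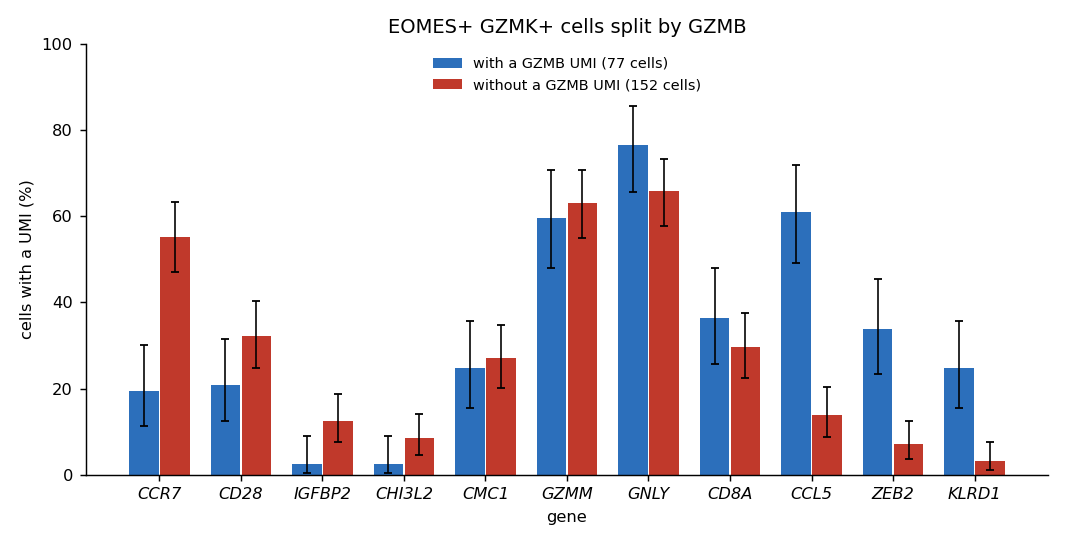
Share of EOMES+ GZMK+ cells with a UMI of each gene, in 77 cells with a GZMB UMI (blue) and 152 without (red), with exact 95% intervals, for cells with under 3 B cell gene UMIs. CCR7 was in 19.5% and 55.3% of cells, CCL5 in 61.0% and 13.8%, and GZMM in 59.7% and 63.2%.

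The CD8 tag gave another split, also chosen after the values had been seen. Among cells with under 3 B cell gene UMIs, 90 lay above the B cell level and 139 within it, with median depths of 3941 and 3369 UMIs. CD8A RNA was at 322 CPM in the first and 33.2 in the second, and a CD8A UMI was found in 63.3% and 11.5% of cells, so that RNA and surface tag went together. CD8B RNA was at 29.3 and 4.15 CPM, on 12 and 2 UMIs. The ratio intervals spanned 0 for CCR7 (249 and 276 CPM), CMC1 (115 and 127), GNLY (697 and 689) and IGFBP2 (43.9 and 43.6). They left out 0 for GZMB (783 and 461 CPM), SIGLEC5 (14.6 and 60.2), KLRB1 (210 and 324), CD7 (273 and 156) and FOXO1 (9.75 and 45.7), among others. The same held for STMN1 (234 and 91.3) and TUBB (356 and 187). Of the 96 STMN1 and 146 TUBB UMIs in the cells above the B cell level, 57 and 78 came from the histone-rich cell alone. GZMK, a gene of the rule, was at 1966 and 2680 CPM.

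The 23 EOMES+ GZMK+ cells at or below the CD4 tag limit carried more CD8B and less CD4 RNA than the chosen cells. Their median CD4 tag was 76 and their median CD8 tag 836. CD8B was at 311 CPM against 16.6, CD4 RNA at 59.9 against 164, CTSW at 922 against 194, CCL5 at 1222 against 261 and KLRD1 at 395 against 47.7, while the ratio intervals of NKG7 and CST7 spanned 0. Of the NK genes, TYROBP was at 383 CPM against 87.1 and KLRF1 at 204 against 71.5, NCR1 had 3 UMIs against 0, and FCER1G and SH2D1B had none in either group, and their part in these differences was not tested. CMC1 was at 359 CPM (242 to 513) against 135 (113 to 160), while IGFBP2 (47.9 against 41.5) and CHI3L2 (35.9 against 24.9) had ratio intervals that spanned 0.

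Markers of other cells were measured beside these results. All 8 B cell genes had UMIs in the EOMES+ GZMK+ cells, 215 in sum (223 CPM against 140 in comparison cells), led by IGHM with 54, and 5 cells with 9478 to 17382 UMIs held 23 to 59 of them each. These 5 were 2.14% of the 234, against 1.77% of comparison cells with 3 or more such UMIs. They held all 53 UMIs of MS4A1 (CD20), 561 of the 1462 UMIs of CD74, the class II invariant chain, and 56 of the 68 UMIs of CD83. Without cells of this kind in either group, CD74 was at 1010 CPM against 366 (log2 ratio 1.44), where all cells had given 1516 against 750, MAMU-DRA at 34.8 against 37.9 (-0.10, from 0.77) and CD83 at 13.5 against 5.54 (0.59, from 1.43). CMC1, IGFBP2, ITM2C and GZMM then had log2 ratios of 2.17, 2.26, 1.89 and 1.84. Monocyte genes had 11 UMIs in sum, with S100A8, S100A9, FCN1, VCAN and CSF1R at 0. Platelet genes had 1 UMI. Of the 7 NK genes, 4 had UMIs, led by TYROBP with 84, and NCR1, FCER1G and SH2D1B were at 0, for 161 CPM against 145 in comparison cells.

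T cell receptor segments were spread over many genes. A TRAV segment was counted in 132 of the 234 cells (56.4%) and a TRBV segment in 111 (47.4%), over 22 and 16 segments. Those seen in at least 5% of cells were TRAV12-2 (23 cells), TRAV13-1 (14), TRAV19 (12), TRBV9 (20), TRBV27 (16), TRBV6-1 (13), TRBV5-1 (12) and TRBV23-1 (12), and among gamma segments TRGV1 (24). Of 48 segments, TRAV10 of the rule left out, 12 had intervals that did not overlap between EOMES+ GZMK+ and CX3CR1+ GZMB+ cells, with 6 higher and 6 lower in the former. TRAV19 was in 5.13% (2.68 to 8.79) of the EOMES+ GZMK+ cells and 226 of 1132 (17.7 to 22.4%) of the CX3CR1+ GZMB+ cells, while TRBV6-1 was in 5.56% (2.99 to 9.31) and 1.24% (0.678 to 2.07). Of all the segments counted, TRAV9-1 (8 and 0 cells) and TRGV1 had intervals that did not overlap between the 80 cells with a GZMB UMI and the 154 without, with TRGV1 at 22.5% (13.9 to 33.2) and 3.90% (1.44 to 8.29), while those of the others did, with TRBV9 in 6 and 14 cells. The pair TRAV9-1 and TRBV27 was looked at after the values had been seen. Of the 8 cells with TRAV9-1, 7 also had TRBV27, as did 25 of 27 GZMK-only cells with TRAV9-1, 21 of 27 CX3CR1+ GZMB+ cells with it and 11 of 87 comparison cells with it. Near-identical segments can share reads, so these counts name features and not receptors.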

How the data were processed

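Reads were mapped to Mmul_10, and the authors deposited the resulting UMI counts of each gene and tag in each barcode without normalization. Their tools were STAR 2.5.1b and Cell Ranger 3.1.0; the annotation release was not given in the sources used here. Cells had to have 200 to 4000 detected genes and no more than 20% of UMIs from the mitochondrion (13 genes with a symbol and 2 without one), which leaves 7601 cells. Cells were then gated on raw counts as described. Both the cells and the 24 gene lists were chosen with earlier results of these data known.

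Counts were summed per group, scaled to CPM and compared as ratios of CPM + 10 among genes with a mean of at least 20 CPM. Named genes were those of the lists, the 15 with the highest and the 15 with the lowest ratio in each comparison, and receptor segments in at least 5% of cells. Of 260 listed symbols, 30 were not matched, and some listed genes and sequences are not reported here. Shares called thinned were taken after thinning cells to 2000 UMIs with seed 1, which left out 11 EOMES+ GZMK+ cells and 354 comparison cells, and the shares in the splits and of receptor segments were not thinned. Scrublet, at an expected doublet share of 6%, marked 0 of 7601 cells, so no doublets were identified and no cell was removed. An alternative left out the 380 cells (5%) with the highest scores. The tools were scanpy 1.11.5, scikit-learn 1.9.0, scipy 1.17.1, numpy 2.4.6, matplotlib 3.10.9, pandas 2.3.3 and Python 3.11.15, and the ratio step was tested on simulated data. Alternatives tried were other limits on EOMES, GZMK, mitochondrial share, tags, depth and level, other pseudocounts, scaling, comparison cells, thinning and neighbours.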

Additional observations from a re-analysis of the deposited data

How the results depend on the processing

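No paired analysis was possible because the data are 1 sample of 1 animal. With at least 2 EOMES UMIs, 67 cells remained, 67 genes were higher and 52 lower than in comparison cells, and 80 were higher and 166 lower than in CX3CR1+ GZMB+ cells. A pseudocount of 1 CPM gave 51 and 35, and 77 and 136. A pseudocount of 50 CPM gave 11 and 5, and 14 and 26, with 7 and 15 listed genes past 2-fold. A mean level of at least 5 CPM gave 49 and 37 against comparison cells and 79 higher against CX3CR1+ GZMB+ cells. In cells with 3000 to 6000 UMIs, 44 genes were higher than in comparison cells and 130 lower than in CX3CR1+ GZMB+ cells. Scaling without ribosomal and mitochondrial genes gave 40 higher and 40 lower against comparison cells, and 89 higher and 86 lower against CX3CR1+ GZMB+ cells. That scaling also raises every CPM against the fixed level limit and pseudocount. Holding comparison cells to the rest of the rule, added after the data had been seen, gave 47 higher. Leaving out the top cell of each gene, which was added after the data had been seen, gave 17 higher and 31 lower. As described above, that step itself tends to lower the ratios. Against comparison cells without a CX3CR1 or GZMB UMI, a filter on that side alone, 94 were higher, 35 lower, and 45 listed genes passed 2-fold. CCR7 was found in 43.6% of EOMES+ GZMK+ cells without thinning and in 39.5% at 3000 UMIs. The other 85 values of this kind moved by less than their limits, and the 30 that moved are among those given here, as counts and shares whose cause of moving was not tested. Single genes turned direction or came to a log2 ratio of 0.00 in 32 instances, nearly all of them genes seen mostly in 1 cell. Of the remaining values, 298 moved past their limits without turning and 1065 did not. With at least 2 EOMES UMIs, log2 ratios against comparison cells were -0.08 for H3C6, -0.35 for H3C12, -0.10 for H3C2, -1.26 for H3C13, -0.91 for ENSMMUG00000058213 and -1.09 for ENSMMUG00000065023, and against CX3CR1+ GZMB+ cells -0.15 for H3C12 and H3C2, -0.54 for H3C13 and -1.42 for ENSMMUG00000058213. With at least 2 GZMK UMIs, ENSMMUG00000065023 was at -1.09. Without cells with 3 or more B cell gene UMIs, ENSMMUG00000058213 was at -0.01 and 0.00 in the 2 comparisons and ENSMMUG00000065023 at -0.08. At 3000 to 6000 UMIs, H3C12 was at -0.12 and -0.16, H3C13 at -0.09 and -0.25, ENSMMUG00000058213 at -0.45 and 0.00, ENSMMUG00000065023 at -0.10 and HIST1H2AE at -0.25. Without the top cells, H3C12 was at -0.12 in both, H3C13 at -0.41 and -0.36, ENSMMUG00000058213 at -0.58 and 0.00, ENSMMUG00000065023 at -0.80 and HIST1H2AE at -0.11. Against comparison cells without a CX3CR1 or GZMB UMI, TSPAN2 was at 0.18 and ENSMMUG00000059649 at 0.07.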

Other observations

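The 29 cells that met the rule but for a CX3CR1 UMI carried more GZMB than the chosen cells, with 2401 CPM against 576, and less CCR7, with 53.8 CPM against 251. CMC1 was at 74.0 CPM in them on 11 UMIs, GZMM at 249 and LEF1 at 0 UMIs. Their median CD8 tag was 383, and 20 of the 29 lay above the level of the B cells.

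Several receptor genes had a higher level in EOMES+ GZMK+ cells than in comparison cells. TGFBR3, the betaglycan coreceptor for TGF-beta, had 223 CPM against 110, CXCR6, a tissue homing receptor, had 20.7 against 7.40, CXCR5, the follicle homing receptor, had 33.2 against 14.8 and 237 in the B cells, and SLAMF6, a receptor of memory-like T cells, had 123 against 66.8, each at less than 2-fold on the CPM + 10 scale. CRTAM, an activation-induced adhesion receptor, had 14 UMIs in 12 of the 234 cells and 43 in the comparison cells, 14.5 CPM against 1.77, past 2-fold with a log2 ratio of 1.06. CRTAM, CXCR6 and CD226 had mean levels under the limit of 20 CPM for genes compared. CD226, the activating partner of TIGIT, had 1 UMI, 1.04 CPM against 10.7 in comparison cells.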
